A study of Bos taurus with 21 samples.

Results

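Genes for the proteasome and its regulators were followed through gestation in the muscle of foetal calves. The members were all genes whose symbol starts with PSMA, PSMB, PSMC, PSMD, PSME, PSMF or PSMG, without the immune subunits PSMB8, PSMB9 and PSMB10. There were 44 such genes with a probe, of 12538 genes named on the array. The annotation holds 47 genes by the same rule, and PSMA8, PSME3 and PSMG4 were not analysed here. Each gene was read by 1 probe, the one with the highest mean log2 intensity. Foetuses of 2 French beef breeds, Blonde d'Aquitaine (BA) and Charolais (CH), were taken at 110, 180, 210 and 260 days post conception (dpc), and each foetus was measured on 1 single-colour array. BA had 3 foetuses at 110 dpc, 2 at 180, 3 at 210 and 2 at 260 dpc. CH had 2 foetuses at 110 dpc and 3 at each later stage. All dams were carrying their first calf and had been inseminated with semen of their own breed, from a small number of bulls. BA is a heavily muscled breed that carries a MSTN mutation, but no genotype of the foetuses is given, so BA stands for the breed and not for a known allele. Both sexes were present in each breed, with 3 males of 10 in BA and 5 males of 11 in CH. At 110 dpc 2 of 3 BA foetuses and 0 of 2 CH foetuses were male. At 260 dpc 0 of 2 BA foetuses and 2 of 3 CH foetuses were male, and both BA foetuses at 180 dpc were female. Sex was thus mixed with the breed difference at these stages and with the stage change in each breed. The deposited labels give the tissue as Longissimus thoracis, whereas the study's methods name m. Semitendinosus.

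The proteasome is the large protease that degrades proteins tagged with ubiquitin. Its 20S core is a barrel of outer alpha rings, built from PSMA subunits, and inner beta rings, built from PSMB subunits, of which PSMB5, PSMB6 and PSMB7 carry the active sites. A 19S cap recognises the tagged protein, and its base of PSMC ATPases unfolds it while its lid of PSMD subunits removes the ubiquitin. Chaperones of the PSMG family and the subunits' partners PSMD5, PSMD9 and PSMD10 help to assemble the core and the cap. PSME proteins are alternative activators of the core, and PSMF1 was first described as an inhibitor. In muscle the system turns over contractile proteins, and its activity is best known from muscle wasting.

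Values are log2 intensities after each array was reduced by its 75th percentile, with 0 at the median probe of a typical array. Between 29017 and 34502 of 43653 probes lay well above background on an array. The 75th percentile itself was lower near term, between 525 and 669 intensity units on the 5 arrays at 260 dpc against 669 to 932 on the 5 arrays at 110 dpc, so a difference between stages is relative to the other probes of the array. Each array is a separate foetus. Marker genes of muscle fibres averaged between 9.17 and 9.58 at 110 dpc and between 10.68 and 10.84 at 260 dpc, and 7 of 7 fibre markers with a probe were well above background on all 21 arrays. Of these 7, 5 rose and MYH3, the embryonic myosin heavy chain, fell by 0.83. Over the same stages the mean of 4 genes of cycling cells went from between 1.51 and 1.80 to between -1.61 and -0.67, and 5 of 6 fibroblast markers fell. Of 3 myoblast markers with a probe 2 fell, MYF5 by 2.17 and MYOG by 0.78, and 3 of 4 endothelial markers rose. The haemoglobin genes HBA and HBB fell by 1.64 and 2.46, the other 2 of 4 erythroid markers were not tested, and the mean of the erythroid list was between 3.24 and 4.39 at 110 dpc and between 1.17 and 2.77 at 260 dpc. Of 3 adipocyte markers with a probe 1 rose, LPL by 3.97. In whole tissue, fewer cells of a type and less RNA per cell cannot be told apart, and the part of these shifts in the proteasome values was not tested.

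Under 75th percentile scaling most proteasome subunits rose between 110 and 260 dpc, relative to the other probes. With both breeds averaged, 25 of 44 members rose and 2 fell (limma, Benjamini-Hochberg adjusted over 20132 probes), while 33.3% of all tested probes rose and 30.8% fell. The median difference of the members was 0.32 on the log2 scale, against 0.04 for all tested probes. In the core rings 11 of 15 genes rose and in the base ATPases 5 of 6, whereas 1 of 3 did so in each set of assembly chaperones and 1 of 4 among the activators and inhibitor. The 42 members that passed the filter on low intensity were tested. PSMB11, the beta subunit of the thymus, and PSMC3IP, a recombination factor that only shares the prefix, did not pass. Array by array, the median of the members lay between 5.39 and 5.45 on the arrays at 110 dpc and between 5.59 and 5.86 on those at 260 dpc. No array at 260 dpc overlapped with one at any earlier stage, where the highest median was 5.53. For 20 of 44 members every array at 260 dpc lay above every array at 110 dpc, and for 2 it lay below, where 25.3% and 21.8% of all tested probes did so.

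**Figure D1:**
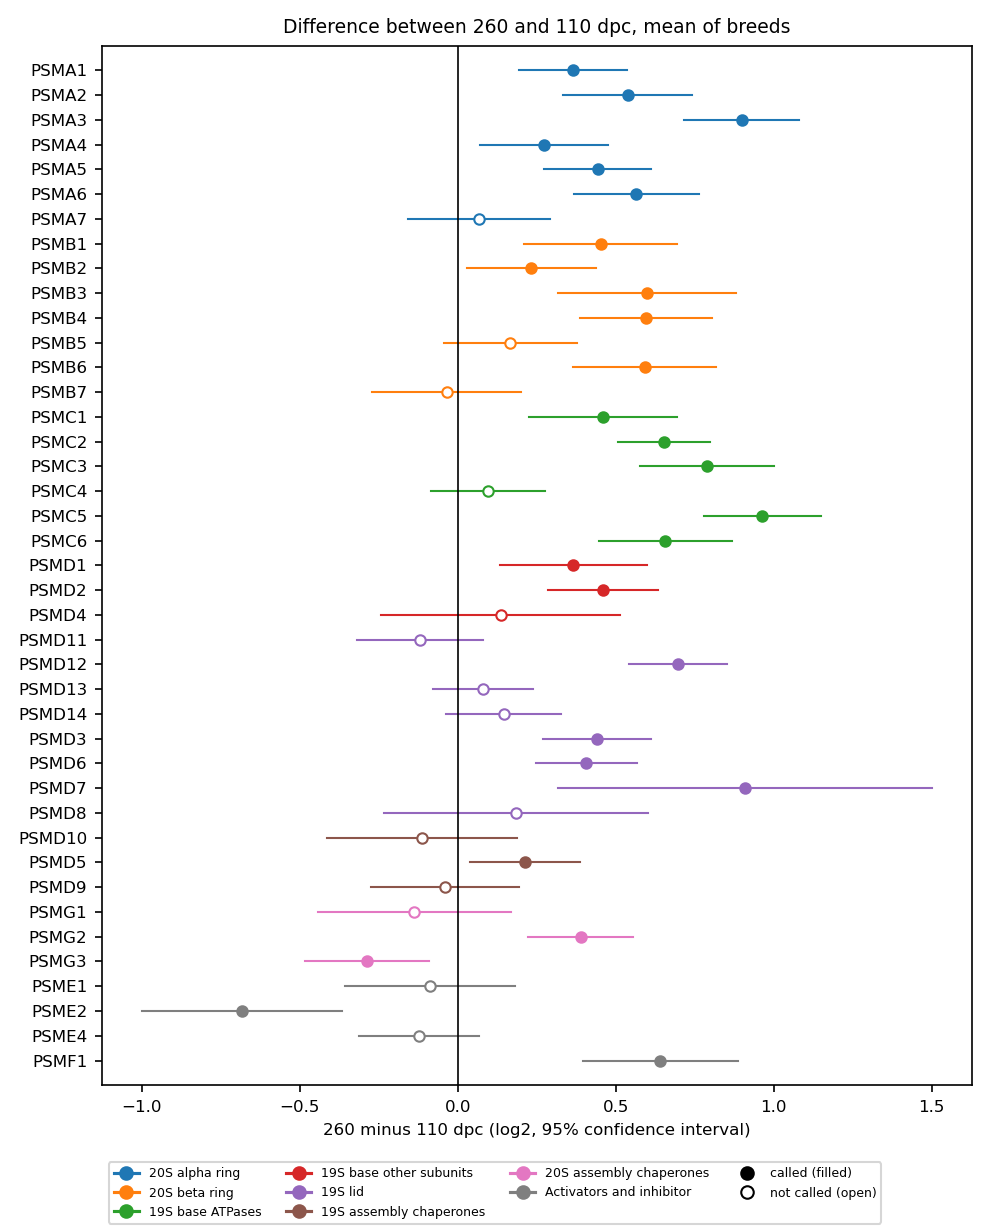
Difference between 260 and 110 dpc with the breeds averaged, in log2 units, for the 41 tested members that belong to a subcomplex. Points are limma estimates from 21 arrays, bars are 95% confidence intervals, and filled points passed an adjusted p of 0.05. Most PSMA, PSMB and PSMC genes lie to the right of 0, and PSME2 at -0.68 lies farthest to the left.

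The 19S base ATPases had the highest median difference, 0.65, and 5 of 6 rose. PSMC5 encodes one of the ATPases that thread a substrate into the core. At 110 dpc its log2 intensity was 6.72, 6.86 and 6.98 in BA and 7.07 and 6.87 in CH, and at 260 dpc it was 7.76 and 8.0 in BA and 7.71, 8.0 and 7.92 in CH. The stages did not overlap in either breed. PSMC5 thus rose by 0.96 ± 0.09 (SE), or 1.95-fold, with an adjusted p of 4.0e-08, the lowest of all members. Its stage means increased at every step, from 6.91 to 7.08, 7.31 and 7.88. Its other 2 probes gave 1.00 and 1.00. PSMC3 rose by 0.79, PSMC6 by 0.66, PSMC2 by 0.65 and PSMC1 by 0.46. PSMC4 was the exception, with a difference of 0.10 that did not pass (adjusted p = 0.33), and its other probe gave 0.07.

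Of the 7 genes of the 20S alpha ring, 6 rose, with a median of 0.44. PSMA3, a structural subunit of the ring, changed most. Its log2 intensity at 110 dpc was 4.17, 4.23 and 3.96 in BA and 4.06 and 3.96 in CH, and at 260 dpc it was 4.94 and 4.98 in BA and 4.86, 5.10 and 4.94 in CH. The lowest array near term thus stood 0.63 above the highest at 110 dpc. The difference was 0.90 ± 0.09 (SE), 1.86-fold, with an adjusted p of 8.1e-08. PSMA6 rose by 0.57, PSMA2 by 0.54, PSMA5 by 0.44, PSMA1 by 0.37 and PSMA4 by 0.27. The other probe of PSMA4 gave 0.23 and did not pass (adjusted p = 0.17). PSMA7 did not pass, at 0.07, and its 4 probes lay between 0.04 and 0.13.

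In the 20S beta ring 5 of 8 genes rose, with a median of 0.34, and the catalytic subunits were split. PSMB4, a non-catalytic subunit, had the lowest p in the ring. Its log2 intensity was 7.17, 7.24 and 7.25 in BA and 7.23 and 7.22 in CH at 110 dpc, and 7.90 and 7.89 in BA and 7.40, 7.93 and 7.89 in CH at 260 dpc. It rose by 0.60 ± 0.10 (SE, adjusted p = 4.9e-05), with CH replicate 1 lowest of the 260 dpc arrays, but under quantile normalization its difference was 0.04 and did not pass (adjusted p = 0.64). PSMB6, which holds the caspase-like site, went from between 5.23 and 5.52 on the 5 arrays at 110 dpc to 6.04 and 5.95 in BA and 5.57, 6.16 and 6.14 in CH. It rose by 0.59 ± 0.11 (SE, adjusted p = 1.15e-04). PSMB5, which holds the chymotrypsin-like site, followed a trough, with stage means of 6.15, 5.91, 5.82 and 6.32. Its 110 dpc arrays, between 5.86 and 6.26, overlapped with its 260 dpc arrays, between 5.99 and 6.48, and the difference of 0.17 ± 0.10 (SE) did not pass (adjusted p = 0.16). Without CH replicate 1 at 260 dpc the same difference was 0.24 and passed (adjusted p = 0.030). PSMB7, which holds the trypsin-like site, had stage means of 7.34, 7.26, 7.26 and 7.30 and a difference of -0.03 ± 0.11 (SE, adjusted p = 0.80). The dimmer probe of PSMB7 gave 0.37 and passed, so the probes of this gene disagreed. PSMB3 rose by 0.60, PSMB1 by 0.45 and PSMB2 by 0.23. For PSMB3, CH replicate 1 at 110 dpc read 3.48, and the other arrays of that stage lay between 4.24 and 4.35. The part of that array in the PSMB3 difference was not tested. On the same arrays the other probe of this gene gave 0.57 and passed (adjusted p = 1.4e-04). The other probe of PSMB2 gave 0.10 and did not pass (adjusted p = 0.40).

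Among the other subunits of the 19S base, PSMD2 and PSMD1 rose. PSMD2 is a scaffold that receives ubiquitin shuttles. Its values at 110 dpc were 6.28, 6.34 and 6.52 in BA and 6.49 and 6.36 in CH, and at 260 dpc 6.78 and 7.05 in BA and 6.65, 6.91 and 6.88 in CH. These ranges did not overlap, and the difference was 0.46 ± 0.08 (SE, adjusted p = 1.0e-04). Under quantile normalization it was 0.09 and did not pass (adjusted p = 0.25). PSMD1 rose by 0.37. The ubiquitin receptor PSMD4 varied more among arrays of 1 stage, between 5.55 and 6.29 at 110 dpc and between 6.04 and 6.48 at 260 dpc. Its difference of 0.14 ± 0.18 (SE) did not pass (adjusted p = 0.52), and its 4 probes ranged from -0.06 to 0.41, none of them called.

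The 19S lid was mixed, with 4 of 8 genes higher and a median of 0.30. PSMD12, a lid scaffold, stood at 110 dpc at 2.28, 2.29 and 2.18 in BA and 2.23 and 2.42 in CH. Near term it reached 3.01 and 3.15 in BA and 2.98, 2.91 and 2.77 in CH. It rose by 0.70 ± 0.07 (SE, adjusted p = 2.6e-07), and its stage means increased at each step, from 2.29 to 2.41, 2.68 and 2.99. PSMD3 rose by 0.44 and PSMD6 by 0.41. PSMD14, the deubiquitinase of the lid, had values between 3.99 and 4.21 at 110 dpc and between 4.07 and 4.40 at 260 dpc, and its difference of 0.15 ± 0.09 (SE) did not pass (adjusted p = 0.15). PSMD11 at -0.12, PSMD13 at 0.08 and PSMD8 at 0.18 did not pass either. PSMD7, the partner of PSMD14, had a difference of 0.91 ± 0.28 (SE, adjusted p = 0.0090), but 1 array set its size. CH replicate 1 at 110 dpc read 3.51, and the other 20 arrays lay between 5.77 and 6.65. Without that array PSMD7 differed by 0.33 (adjusted p = 0.036).

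**Figure D2:**
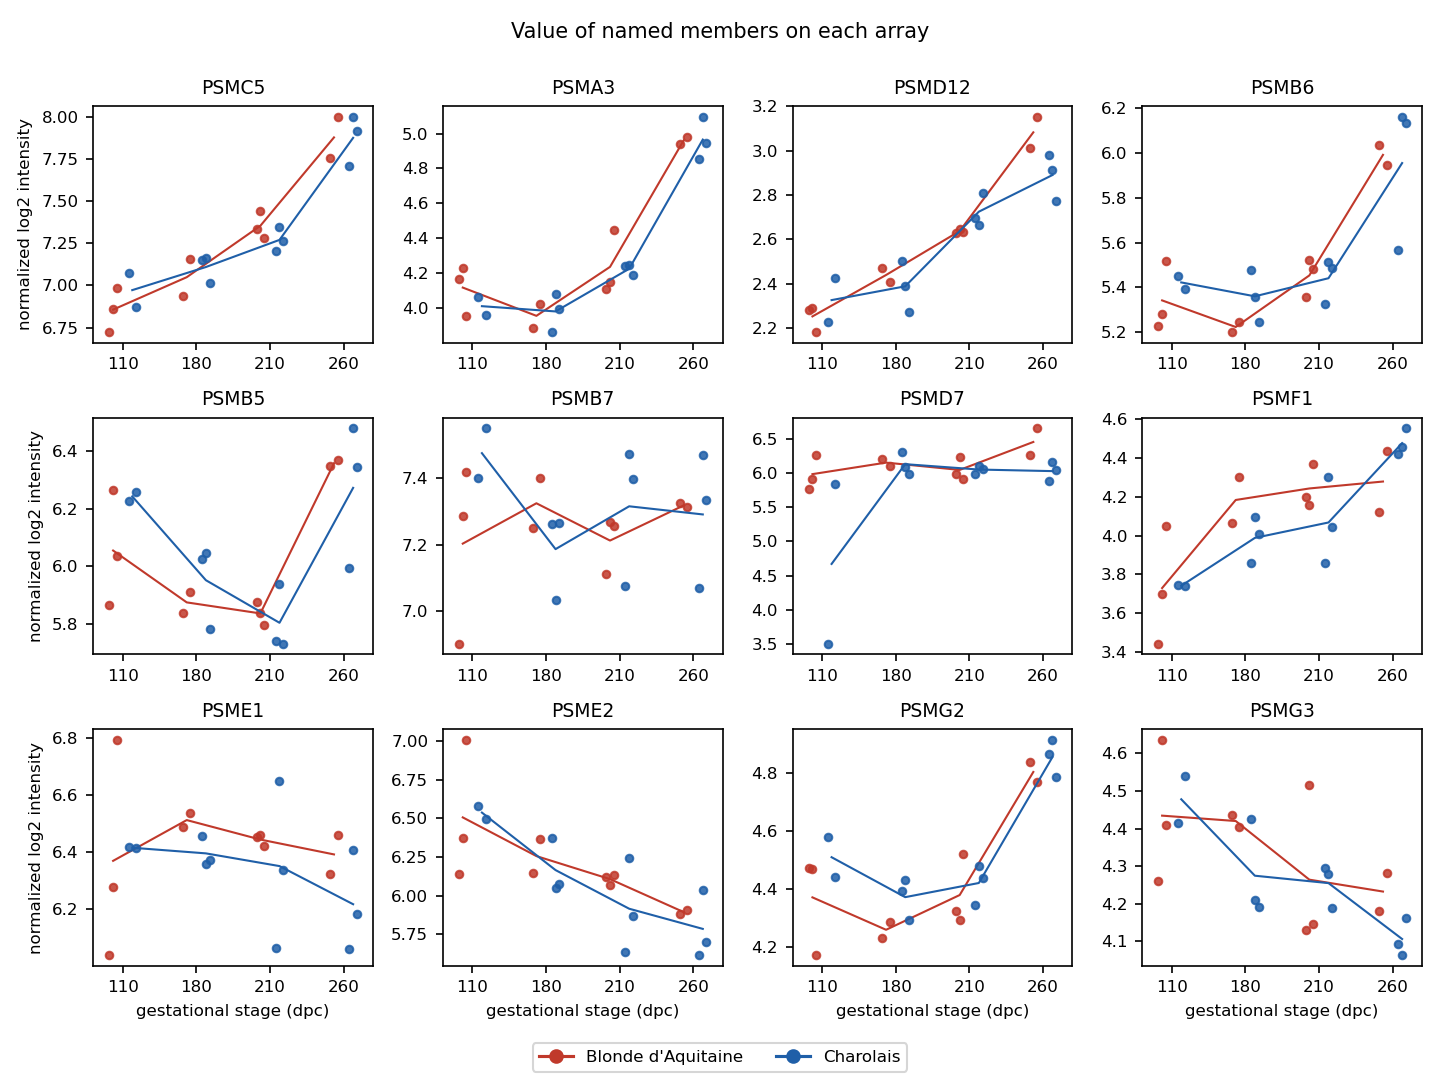
Normalized log2 intensity of 12 members on each of the 21 arrays, by gestational stage in dpc, with BA in red and CH in blue. Points are arrays and lines join the group means. PSMC5, PSMA3 and PSMD12 separate 260 from 110 dpc on every array, PSMB5 passes through a trough, PSME2 is lower at 260 than at 110 dpc, and a single CH array at 3.51 stands apart for PSMD7.

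The assembly chaperones had medians of -0.04 for the 19S cap and -0.14 for the 20S core. Of the chaperones of the 19S cap, PSMD5 rose by 0.21 ± 0.08 (SE, adjusted p = 0.032), with arrays between 2.56 and 2.93 at 110 dpc and between 2.86 and 3.22 at 260 dpc that overlapped. Its other probe gave 0.14 and did not pass (adjusted p = 0.17). The call was lost without BA replicate 2 at 260 dpc (0.15, adjusted p = 0.17), without CH replicate 1 at 110 dpc (0.18, adjusted p = 0.11) and without BA replicate 3 at 110 dpc (0.16, adjusted p = 0.075). PSMD9 and PSMD10 were at -0.04 and -0.11 and did not pass. Of the chaperones of the 20S core, PSMG2 and PSMG3 changed in opposite directions. PSMG2, which acts as a pair with PSMG1, read 4.47, 4.47 and 4.17 in BA and 4.58 and 4.44 in CH at 110 dpc. At 260 dpc it read 4.84 and 4.77 in BA and 4.87, 4.92 and 4.79 in CH, above every earlier array. PSMG2 rose by 0.39 ± 0.08 (SE, adjusted p = 3.4e-04). PSMG3 went from 4.26, 4.64 and 4.41 in BA and 4.42 and 4.54 in CH to 4.18 and 4.28 in BA and 4.09, 4.06 and 4.16 in CH. It fell by 0.29 (SE 0.09, adjusted p = 0.012), and only BA replicate 1 at 110 dpc and BA replicate 2 at 260 dpc overlapped. PSMG3 was singled out after its values were seen, as 1 of the 2 members that fell. Without CH replicate 2 at 110 dpc its difference was -0.26 and no longer passed (adjusted p = 0.051). PSMG1 did not pass, at -0.14.

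Among the regulators 1 gene rose and 1 fell. PSMF1 read 3.44, 3.70 and 4.05 in BA and 3.74 and 3.74 in CH at 110 dpc, and 4.12 and 4.44 in BA and 4.42, 4.45 and 4.55 in CH at 260 dpc, with no overlap. It rose by 0.64 ± 0.12 (SE, adjusted p = 1.2e-04). PSME2 encodes a subunit of the PA28 activator, a complex that interferon induces. It read 6.14, 6.38 and 7.01 in BA and 6.58 and 6.50 in CH at 110 dpc, and 5.88 and 5.91 in BA and 5.61, 6.04 and 5.70 in CH at 260 dpc. All arrays near term lay below all arrays at 110 dpc. PSME2 fell by 0.68 (SE 0.15, adjusted p = 7.2e-04), its other probe gave -0.64, and its stage means of 6.52, 6.21, 6.01 and 5.84 decreased at every step. PSME1, the partner of PSME2 in the same complex, had stage means of 6.39, 6.45, 6.40 and 6.30 and a difference of -0.09 ± 0.13 (SE, adjusted p = 0.57). PSME4, the nuclear activator PA200, was at -0.12 ± 0.09 (SE, adjusted p = 0.25).

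BA replicate 3 at 110 dpc held the highest value of both PSME1 (6.79) and PSME2 (7.01). On that array the mean of 7 interferon-response genes was 6.81. It was 4.25 on BA replicate 3 at 210 dpc and at most 2.60 on the other 19 arrays. The part of this array in the PSME1 and PSME2 values was not tested beyond leaving it out. Without it PSME2 differed by -0.56 between 260 and 110 dpc (adjusted p = 8.80e-04) and PSME1 by 0.02.

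The change was not spread evenly over gestation. From 110 to 180 dpc the median difference of the members was -0.09, and 14 of 44 differences were positive. In that step 2 members rose, PSMD7 by 0.81 and PSMF1 by 0.35, and 2 fell, PSME4 by 0.31 and PSMA1 by 0.24. Of all tested probes 12.5% rose and 11.4% fell. The PSMD7 value included the CH array at 3.51 at 110 dpc, and in BA its means were 5.98 at 110 and 6.15 at 180 dpc. From 180 to 210 dpc the median was 0.10 and 35 of 44 differences were positive. The members that rose in this step were PSMD12 by 0.27, PSMA5 by 0.25 and PSMC2 by 0.22, none fell (0 at an unadjusted p under 0.05), and 5.35% of all tested probes rose while 4.33% fell. The number of calls at these first 2 steps was not stable when single arrays were left out. Some fits gave fewer calls and others more, and some left 1 array in a group. From 210 to 260 dpc the median was 0.30, 26 members rose and none fell (0 at an unadjusted p under 0.05), where 24.8% of all tested probes rose and 19.9% fell. Of these 26, 22 had also risen between 110 and 260 dpc. The other 4, PSMB5, PSMC4, PSMD13 and PSMD14, had their lowest stage mean at 180 or 210 dpc and their highest at 260 dpc. PSMA3 rose most in this step, by 0.73. The 3 members that rose between 110 and 260 dpc but not after 210 dpc were PSMD5, PSMD7 and PSMF1.

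As a description of the stage means, without a test of each step, 32 of 44 members were highest at 260 dpc and 23 were lowest at 180 dpc, as were 42.5% and 17.5% of all tested probes. The most common profile, in 17 members, had its lowest mean at 180 dpc, a higher one at 210 dpc and its highest at 260 dpc, a profile of 12.7% of all tested probes. In 10 members each stage mean was above the one before, as in 22.2% of all tested probes. Of the 17, the difference between 110 and 180 dpc passed for PSMA1. Relative to 110 dpc the median of the alpha ring went from -0.12 at 180 to 0.12 at 210 and 0.44 at 260 dpc. The ATPases went from -0.03 to 0.19 and 0.65, and the lid from -0.10 to -0.05 and 0.30. The median of the activators and inhibitor was -0.12, -0.13 and -0.10, over 4 genes of which PSMF1 and PSME2 changed in opposite directions between 110 and 260 dpc. Arrays of different stages that shared a slide showed the late step too. Of 3 such pairs at 260 and 210 dpc within a breed, the median difference of the members was 0.16, 0.25 and 0.35. For 4 such pairs at 180 and 110 dpc it was between -0.10 and -0.0032. No slide held arrays at both 110 and 260 dpc. With the slide as a block, PSME2 was at -0.64 (adjusted p = 0.071), PSMG3 at -0.11 (adjusted p = 0.52) and PSMD5 at 0.23 (adjusted p = 0.22) between these stages, so these calls were lost, and PSMB5 passed at 0.39 (adjusted p = 0.039).

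**Figure D3:**
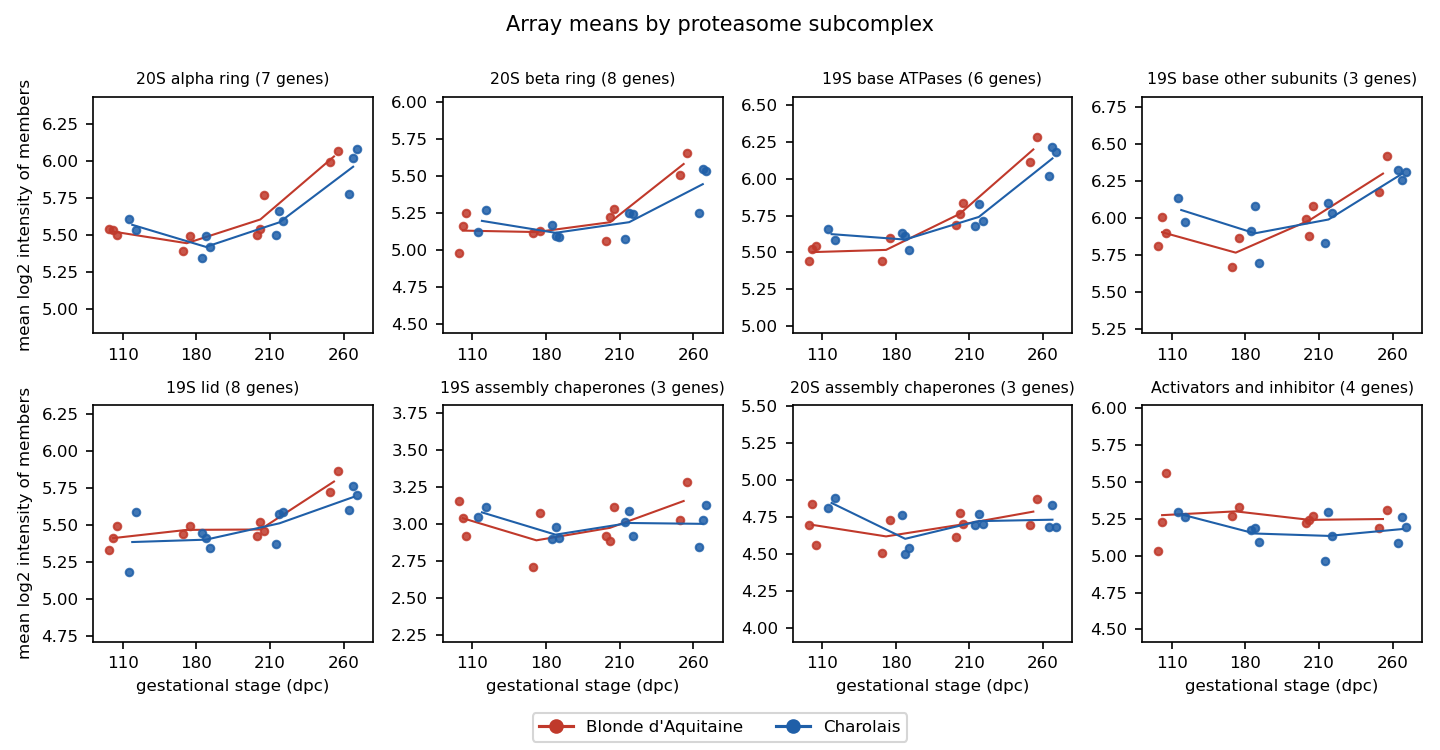
Mean log2 intensity of the members of each subcomplex on each array, by stage in dpc, with BA in red and CH in blue, where lines join group means and every panel spans 1.6 log2 units. The means of the core rings and the base ATPases are higher at 210 than at 180 dpc and highest at 260 dpc, where the ATPases reach 6.17 against 5.55 at 180 dpc.

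Both the size of this increase and the excess of members that rose over all probes depended on the normalization. Under quantile normalization, which forces the same distribution on every array, 14 members rose and 8 fell between 110 and 260 dpc, and the median difference was 0.10. All 14 were among the 25 above, and no member changed its direction of call. They were PSMC1, PSMC2, PSMC3, PSMC5 and PSMC6 of the base, PSMA2 and PSMA3 of the alpha ring, PSMB3 and PSMB6 of the beta ring, PSMD6 and PSMD12 of the lid, and PSMD5, PSMG2 and PSMF1. Besides PSME2 and PSMG3, the genes that fell under this setting were PSMA7, PSMB7, PSMD11, PSMD13, PSME1 and PSME4. Over all tested probes 30.2% rose and 34.2% fell under the same setting, with a median of -0.03. The share of members that rose was thus near that of all probes, and the share that fell was below it. Between 210 and 260 dpc the count under quantile normalization was 13 higher and 4 lower, where 19.9% of all tested probes rose and 22.4% fell. Scaling to the median of the array gave 25 higher and 1 lower between 110 and 260 dpc, with PSMG3 no longer called. Under this setting 37.7% of all tested probes rose, 24.9% fell, and their median moved to 0.13. The ATPases kept 5 of 6 genes higher under all 3 scalings, whereas the calls in the alpha ring went from 6 higher to 2 higher and 1 lower under quantile normalization. The authors' deposited values matched the processed intensity, which is not scaled between arrays. These values were fitted without the filter, over 26225 probes and 43 members. The median of all these probes was -0.37 and that of the members -0.03, so the members' lead was 0.35. The corresponding lead was 0.28 here and 0.13 under quantile normalization, both over filtered probes. These leads thus rest on unlike sets of probes.

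**Figure D4:**
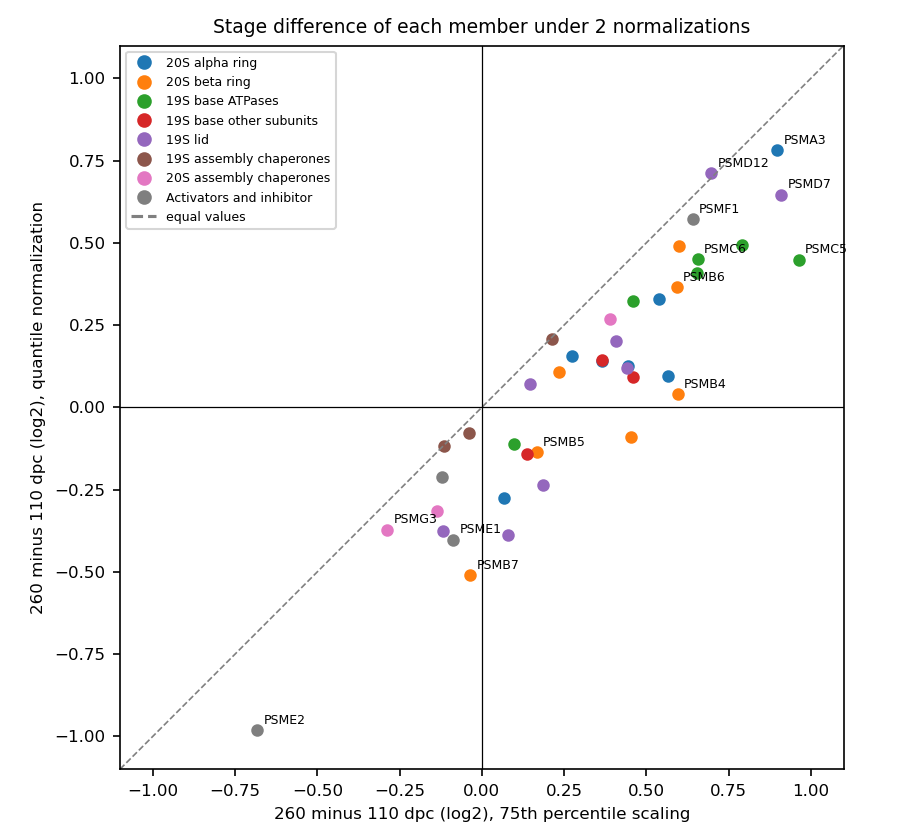
Difference between 260 and 110 dpc in log2 units under 75th percentile scaling (horizontal) and quantile normalization (vertical) for 41 members of the subcomplexes, coloured by subcomplex, with a dashed line at equal values. Nearly all members lie below the line, PSMA3 and PSMD12 are high under both, and PSMB7 stands at -0.03 and -0.51.

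Both breeds showed the increase under 75th percentile scaling. In BA 23 members rose and 1 fell between 110 and 260 dpc, where 27.6% of all tested probes rose and 24.8% fell. In CH 19 rose and 2 fell, where 27.5% rose and 24.7% fell. The median difference was 0.39 in BA and 0.23 in CH. Under quantile normalization 12 members rose and 4 fell in BA, where 25.3% and 28.5% of all tested probes did so. In CH 11 rose and 7 fell under that setting, where 24.8% and 27.1% did so. The shares of members that rose were then near those of all probes. Under 75th percentile scaling 18 members rose in both breeds, among them the ATPases PSMC2, PSMC3, PSMC5 and PSMC6, and PSME2 fell in both. PSMA4, PSMB1, PSMB2, PSMC1 and PSMD5 passed in BA and not in CH, and PSMD7 passed in CH and not in BA. For PSMD7 the 2 CH arrays at 110 dpc read 3.51 and 5.83, and the CH mean at 260 dpc was 6.02. Whether the stage change differed between the breeds was tested as an interaction in limma. It was called for 0 of 42 members, with 1 member at an unadjusted p under 0.05, and for 0% of all tested probes. That member was PSMD8, with a change that was 0.84 larger in BA (adjusted p = 0.70). BA had 15 members higher without BA replicate 2 at 260 dpc, and CH had 12 without CH replicate 2 at 110 dpc. Each of these fits left 1 array in that group, which was assumed to vary like the other groups, and a smaller group by itself gives fewer calls.

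No member passed limma's test for a difference between BA and CH. Averaged over the stages, 0 of 42 tested members passed (limma, smallest adjusted p = 0.37, 1 member at an unadjusted p under 0.05), while 0.358% of all tested probes did. The differences, BA minus CH, ranged from -0.19 for PSMD4 to 0.44 for PSMD7, with a median of 0.01. The 95% confidence intervals of all 42 lay within 1 log2 unit of 0, and the typical interval reached 0.14 to either side of its estimate. These intervals are not adjusted for the number of probes tested, so a difference had to be larger than that to be called. At single stages 0 members passed as well. The share of all tested probes that passed was 0.273% at 110 dpc, 0.00993% at 180 dpc and 0% at both 210 and 260 dpc, and the members at an unadjusted p under 0.05 numbered 3, 1, 0 and 0.

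**Figure D5:**
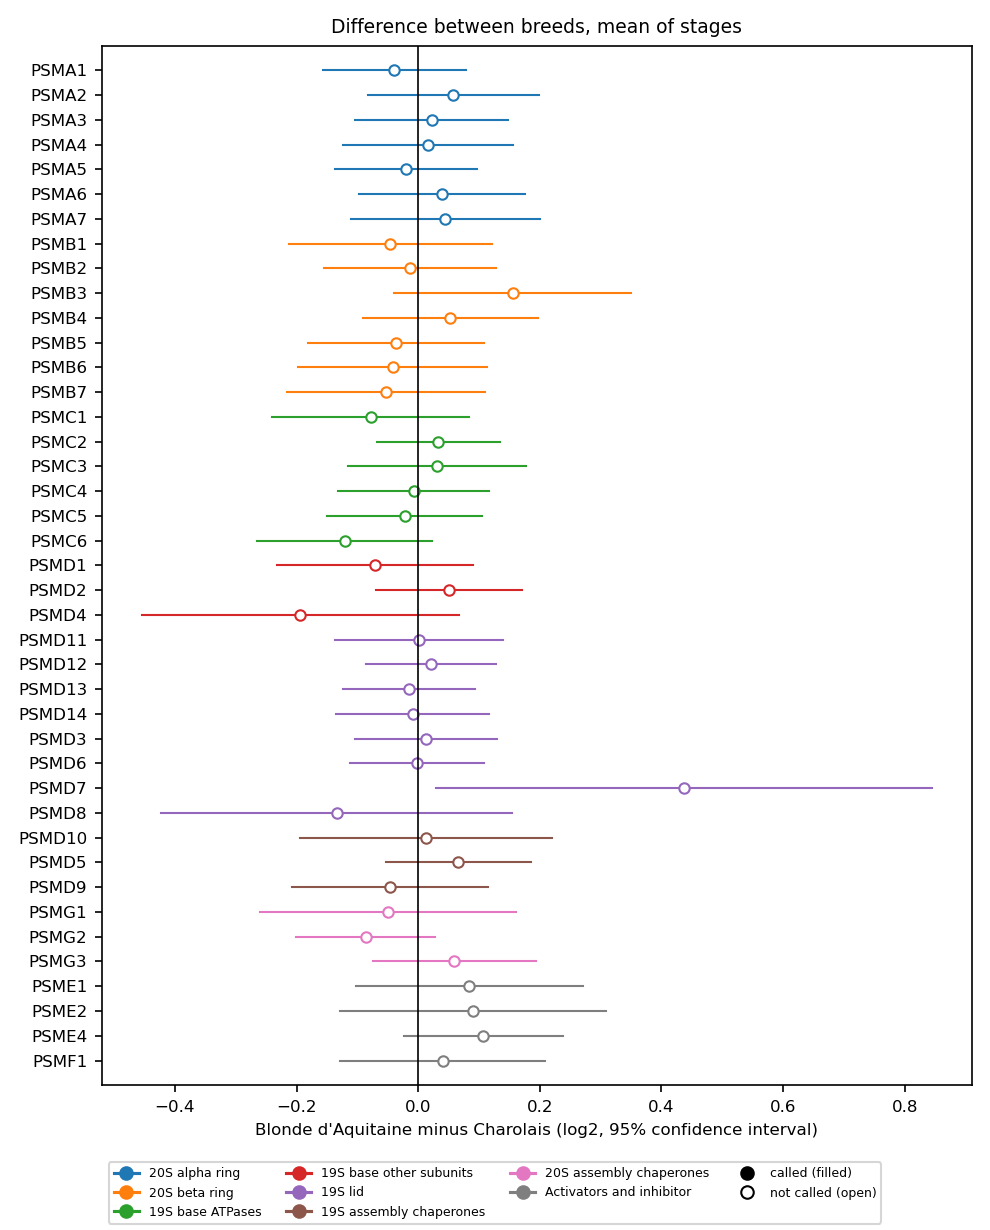
Difference between BA and CH averaged over the stages, in log2 units, for the 41 tested members that belong to a subcomplex. Points are limma estimates from 21 arrays and bars are 95% confidence intervals. All points are open because no member passed, and all intervals but that of PSMD7, at 0.44, span 0.

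The 3 members with the lowest p for the breed were PSMD7, PSMC6 and PSME4. For PSMD7 the group means of BA and CH at 110 dpc were 5.98 and 4.67, and at the later stages they were 6.15 and 6.13, 6.04 and 6.05, and 6.45 and 6.02. The mean difference of 0.44 ± 0.19 (SE) came with an adjusted p of 0.37 in limma. An exact two-sided permutation of the breed labels within stages, over 20000 reassignments, gave p = 0.025. These 3 genes were picked for their low p on the same arrays, so their permutation p restates that choice and is no independent evidence. Without CH replicate 1 at 110 dpc, the array at 3.51, the difference was 0.15 (adjusted p = 0.54). Without CH replicate 2 at 110 dpc, which left that array alone in its group, it was 0.73 (adjusted p = 0.0014). PSMC6 was lower in BA by -0.12 ± 0.07 (SE, adjusted p = 0.48, exact permutation p = 0.062), with BA and CH means of 4.89 and 5.14 at 110 dpc and 5.63 and 5.72 at 260 dpc. PSME4 was higher in BA by 0.11 ± 0.06 (SE, adjusted p = 0.50, exact permutation p = 0.073). PSME1 and PSME2 differed by 0.08 and 0.09 (adjusted p = 0.73 and 0.75, exact permutation p = 0.34 and 0.40). Within slides, 6 pairs of a BA and a CH array of the same stage gave median differences of the members between -0.15 and 0.28, with 3 of either sign.

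Other genes of the ubiquitin-proteasome pathway moved in the same period. Of 47 such genes on a list, 45 had a probe and 42 were tested, and between 110 and 260 dpc 25 rose and 6 fell, with a median of 0.48. This share is to be read against the 33.3% and 30.8% of all tested probes. Of 5 genes for further subunits and for factors that act on the proteasome 4 rose. These were SEM1 by 0.88, AKIRIN2 by 0.75, POMP by 0.57 and ADRM1 by 0.51, and PAAF1 fell by 0.31. The lowest p belonged to UBE2D1, a ubiquitin-conjugating enzyme, which rose by 3.37 ± 0.12 (SE, adjusted p = 8.8e-13). UBE2G1, a conjugating enzyme too, rose by 1.40, and TRIM63, a ubiquitin ligase of muscle fibres, by 3.19. Of the ligases of muscle fibres 4 of 6 rose, including TRIM54 by 2.04 and FBXO32 by 0.88. The 3 genes with the lowest p that fell were USP14, a deubiquitinase bound to the proteasome, by 0.59, UBA6, a ubiquitin-activating enzyme, by 0.72, and FAF2, an adaptor of the unfoldase VCP, by 0.40. NFE2L2 and NGLY1, which act on the transcription of proteasome genes, rose by 0.80 and 0.64, and NFE2L1 was at 0.17 and did not pass. None of the 42 passed for the breed averaged over the stages (0 higher and 0 lower).

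There were 28 members with more than 1 probe, and for 4 of them the sign of the difference between 260 and 110 dpc was not the same for all probes. These were PSMB7, PSMD4, PSME1 and PSME3IP1. PSMD8, not called by its brightest probe, rose by 0.45 on its dimmest. PSMC3IP, which is not part of the proteasome, had stage means of 0.23, -0.84, -0.80 and -1.82 and was not tested. Its probe was well above background on 20 of 21 arrays, as were those of the other 43 members on all 21.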

How the data were processed

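RNA from the muscle of 21 foetuses was labelled with Cy3 and hybridised to single-colour Agilent bovine arrays. The authors deposited scanner output of Agilent Feature Extraction 10.7, and the processed intensity used here was detrended by that software without background subtraction or scaling between arrays. The authors also deposited a table of log2 values, of which 99.98% lay within 0.01 of the log2 processed intensity. The study's methods also name normalization between arrays, so its own results may rest on other values than these. Here, control spots and 258 outlier spot values were left out, spots of a probe were averaged, and each array's log2 intensities were reduced by its 75th percentile and raised by a constant. No spot was saturated (0 values). Precision is limited by the number of arrays, 2 or 3 in a group.

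Probes were named by RefSeq accession through the cattle annotation, which named 26628 of 43653 probes and 12538 genes. Its assembly may differ from that of the array, so no coordinates or sequences are given. The filter kept 20132 probes with a group mean above 0 in at least 7 of 8 groups. These were fitted with limma 3.58.1 (R 4.3.3) as 8 group means, with 13 residual degrees of freedom and Benjamini-Hochberg adjustment at 0.05. The breed was also tested by exact permutation for 5 genes. Named members were the lowest p of each subcomplex, the catalytic subunits, PSMD4, PSMD14, the regulators, and the 3 lowest p for the breed. For the pathway list, they were the 3 lowest p in either direction. Members, lists and tests were chosen with earlier results of these data known. The scripts were tested on simulated data. Alternatives covered scaling, background correction, filters, choice of probe, sex, slide, replicate number and leaving out each array. P-values measure the spread between foetuses, and every foetus shared its sire with others. Each sire served a single breed, so the breed difference is also one between sires. Both BA foetuses at 260 dpc had the same sire, and both at 180 dpc had another. All CH foetuses at 210 dpc had the same sire. The part of the sires was not tested beyond a fit with the sire as a random block.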

Additional observations from a re-analysis of the deposited data

How the results depend on the processing

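Numbers are members with adjusted p under 0.05 in limma, of 44, or of 43 in the authors' values. Medians are over the members, in log2 units. Between 110 and 260 dpc, scaling to the array median left 1 lower (median 0.42, PSMB7 0.066, PSME1 0.013), with 0 lower and a median of 0.52 in BA and 1 lower in CH. It also left 0 lower from 110 to 180 dpc, 0 higher from 180 to 210 dpc, and a median of 0.40 from 210 to 260 dpc. Quantile normalization gave 14 higher and 8 lower (median 0.10, PSMB5 -0.14, PSMD4 -0.14), 12 and 4 in BA (median 0.11), 11 and 7 in CH (median 0.069), 5 lower from 110 to 180 dpc, and 13 higher and 4 lower from 210 to 260 dpc (median 0.087). The authors' unscaled values gave 2 higher and 5 lower (median -0.025, PSMB5 -0.22, PSMD14 -0.25, PSMD4 -0.25, PSMD5 -0.18, PSMG2 -0.00083), where 11.5% of all fitted probes rose and 38.6% fell. In BA they gave 0 higher (median -0.024), where 7.67% rose and 26% fell. In CH they gave 0 higher and 1 lower (median -0.10), where 7.75% rose and 22.7% fell. By step they gave 0 and 0 from 110 to 180 dpc and 0 higher from 180 to 210 dpc. From 210 to 260 dpc they gave 0 higher and 2 lower (median -0.11), where 2.69% of these probes rose and 32.9% fell. The breed median at 180 dpc was 0.14 in these values. Normexp background correction gave PSMB7 0.0026 and 1 higher from 110 to 180 dpc. Without a filter, 2 were lower in BA, 0 higher from 110 to 180 dpc, 0 higher from 180 to 210 dpc and 1 lower from 210 to 260 dpc. A filter on detection left 1 higher and 1 lower from 110 to 180 dpc and 1 higher from 180 to 210 dpc. Sex as a covariate left 0 lower in BA, 1 lower in CH, and 1 higher and 1 lower from 110 to 180 dpc. Females alone gave PSMD4 -0.11, medians of 0.0041 from 180 to 210 dpc and 0.41 from 210 to 260 dpc, and an interaction median of 0.046. That fit left 1 array in BA at 110 dpc and 1 in CH at both 210 and 260 dpc. With the slide as a block, 0 were lower between 110 and 260 dpc (PSMB7 0.04), 0 in BA and 0 in CH (median 0.32), 1 was higher from 110 to 180 dpc and 1 from 180 to 210 dpc. No slide held arrays at both 110 and 260 dpc. A trended robust prior left 1 higher from 110 to 180 dpc. The mean of all probes of a gene gave PSMB7 0.17, 1 higher from 110 to 180 dpc and 6 from 180 to 210 dpc. Without PSMB11, PSMC3IP and PSME3IP1, an alternative chosen after seeing the data, the median in CH was 0.34. Exact permutation p for the breed was 0.0472 for PSMC6 and 0.051 for PSMD7 under median scaling, and 0.0366 for PSME4 and 0.00965 for PSMD7 under quantile normalization. These p are unadjusted and belong to genes picked for their low p on the same arrays. The causes were not tested.

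Leaving out 1 array at a time, which left 1 array in the groups of 2, gave 21 to 26 higher and 1 to 2 lower between 110 and 260 dpc (median 0.27 to 0.35), 15 to 24 and 0 to 1 in BA (median 0.30 to 0.49), and 12 to 20 and 1 to 2 in CH (median 0.18 to 0.26). The ranges were 0 to 2 higher and 0 to 4 lower from 110 to 180 dpc, 0 to 5 higher from 180 to 210 dpc, and 19 to 27 higher from 210 to 260 dpc. For PSMB7 the range was -0.109 to 0.0205, for PSME1 -0.170 to 0.0180, and for PSMD5 0.153 to 0.271. The breed had 0 to 1 higher for the mean of stages and at 110 dpc, and the interaction 0 to 1 lower, in each case through the array CH replicate 2 at 110 dpc.

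With the replicate block, 1 member was higher from 180 to 210 dpc. Replicate numbers did not pair the samples, since deviations of 66 same-numbered pairs correlated with a median r of 0.03 against -0.003 for 126 other pairs.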
